A study of Homo sapiens with 6 samples.

Results

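Cytokines, chemokines and their receptors were a sparsely expressed group in K562 cells, led by death receptors and other receptors of the tumor necrosis factor (TNF) superfamily and by interleukin receptor chains. Members were taken by gene symbol: every measured gene whose symbol begins with CCL, CCR, CXCL, CXCR, IL, TNFSF or TNFRSF followed directly by a digit, together with the growth factor receptor genes EPOR, CSF1R, CSF2RA, CSF2RB and CSF3R. The rule found 181 of 20802 genes: 38 chemokines, 15 chemokine receptors, 45 interleukins, 43 interleukin receptors or binding proteins, 11 TNFSF ligands, 21 TNFRSF receptors, 5 growth factor receptors and 3 others. The symbol rule leaves out relatives with other names, such as TNF, FAS, LIF and KIT, and it takes in the enzyme gene IL4I1, the antisense RNA IL21R-AS1 and the pseudogene CXCR2P1.

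RNA came from K562, a human chronic myeloid leukemia line, taken in blast crisis, with erythroid features. By lentiviral pLKO.1-puro, the cells expressed either a scrambled shRNA (shSc, 3 libraries) or shNPM300 against NPM1 (NPMKD, 3 libraries), and puromycin was used to select both. NPM1 encodes nucleophosmin, a nucleolar and chromatin-associated protein. A single shRNA against NPM1 was used here, so effects of this shRNA or of the selected cells and effects of losing NPM cannot be told apart.

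Cytokine receptors of the hematopoietic class (EPOR, CSF2RB, IL2RG, IL6ST and others) have no enzyme activity of their own and signal through bound JAK kinases and STAT factors. Chemokines are small secreted attractants that act on G protein-coupled receptors. TNFRSF receptors bind TNFSF ligands and recruit TRAF adaptors, or death domain adaptors that lead to caspases. In erythroid cells EPOR is the receptor best known for survival signalling, and in K562 the BCR-ABL1 kinase drives STAT5 without a ligand.

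AmpliSeq reads 1 short amplicon per gene, so reads do not scale with transcript length, but amplicons differ in efficiency and levels of different genes compare only roughly. Values are RPM, a gene's reads scaled to a fixed library total. Depth was 8842344 to 18981902 reads per library, and a count of 0 allows up to 0.158 to 0.339 RPM (3 reads), for counting error only. The authors describe the libraries as triplicates without stating separate cultures, so p-values measure the spread between libraries, which may be technical. NPM1 was at 3856, 2968 and 3146 RPM in the shSc libraries and at 1302, 1168 and 655 RPM in the NPMKD libraries. The NPM1 log2 fold change was -1.76 (standard error, SE, 0.35, limma adjusted p = 0.158). The study retained 2 shSc libraries after a correlation plot, and its text does not name them. Replicate 3 of shSc correlated with the other libraries at 0.825 to 0.864 (Pearson, across genes on the log2 scale), against 0.925 to 0.973 among those others. All 8 K562 erythroid and leukemia markers (GATA1, HBG1 and others) were above 1 RPM in every library. No B cell marker of 6 and no monocyte or macrophage marker of 7 reached 1 RPM in the other 5 libraries, where each list summed to at most 1.05 RPM. In shSc replicate 3 these lists summed to 81.5 and 64.1 RPM. On this basis shSc replicate 3 was left out, and tests compared shSc replicates 1 and 2 with the 3 NPMKD libraries, and the value of shSc replicate 3 stands beside them.

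Of the 181 members, 47 (26.0%) had at least 1 RPM in at least 2 libraries, against 56.4% of all genes. These are called expressed below. The nearest members inside this limit were TNFSF12 and TNFSF13B, with a second highest library of 1.04 RPM, and the nearest outside was IL18R1, with 0.926 RPM. Another 102 members stayed under 1 RPM in every library, 39 of them with no read at all, and 32 reached 1 RPM in a single library. By role, 10 of 21 TNFRSF receptors and 16 of 43 interleukin receptors were expressed, against 7 of 45 interleukins, 6 of 38 chemokines and 4 of 11 TNFSF ligands. Of the 15 chemokine receptors, only CCR7, a lymphocyte homing receptor, was expressed by this rule. CCR7 had 0.282, 0.558 and 2.94 RPM in the shSc libraries and 0.673, 0.426 and 2.79 RPM in the NPMKD libraries, and was not tested. Raising the limit to 5 RPM left 29 members.

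**Figure D1:**
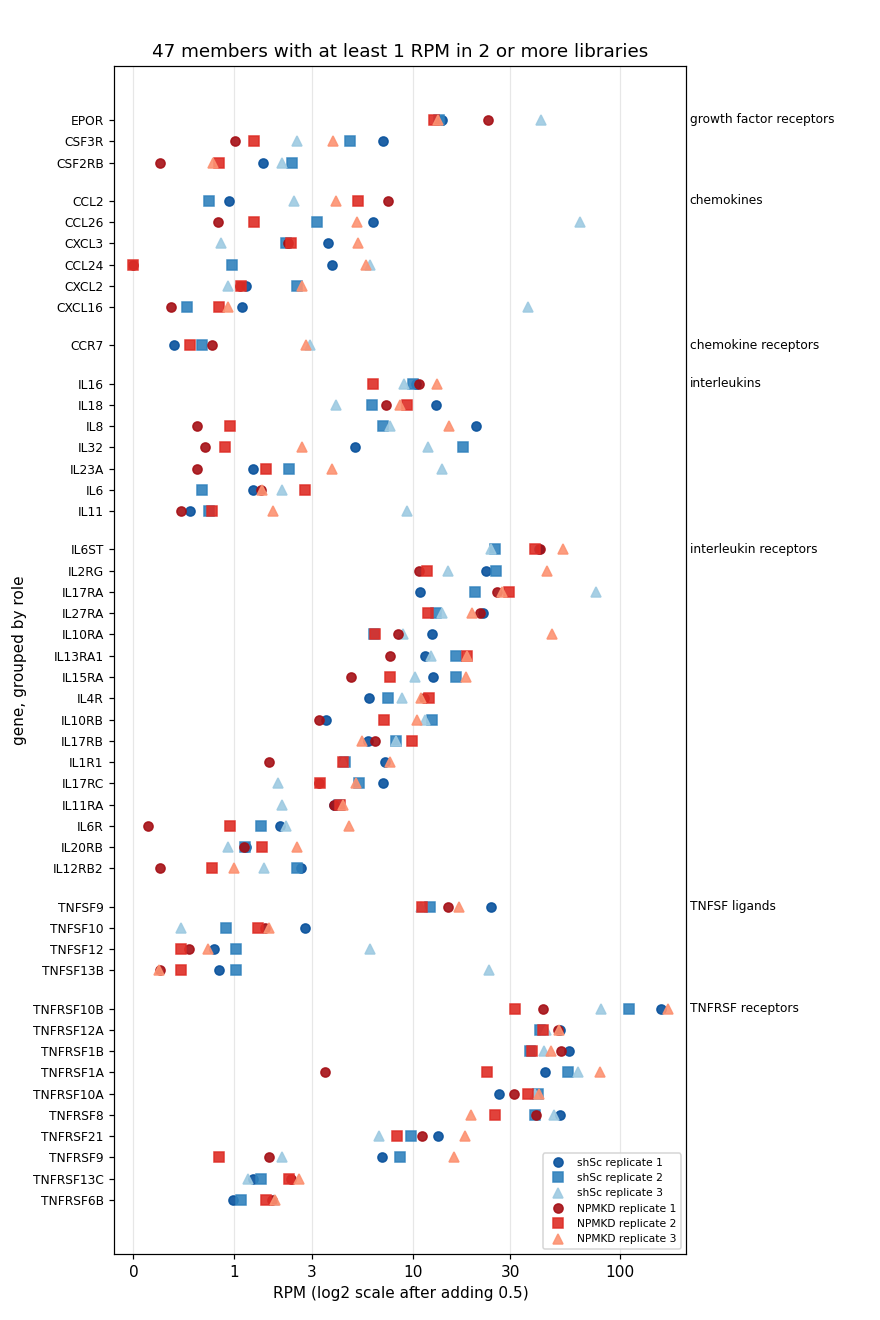
Level of each of the 47 expressed members (rows, grouped by role) in the 6 libraries, as RPM on a log2 scale after adding 0.5, with blue symbols for shSc and red symbols for NPMKD. TNFRSF10B reached 169 RPM, while every expressed CCL or CXCL gene lay under 10 RPM outside shSc replicate 3, where CCL26 was at 64.3 RPM.

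No member passed the test in either direction. The filter of 1 RPM in 2 or more of these 5 libraries left 42 members. Among them limma on log2(RPM + 0.5) called 0 at an adjusted p of 0.05, where it called 0.13% of all 11554 genes tested, and the smallest adjusted p of a member was 0.140. At an unadjusted p under 0.05 there were 7 of 42 members (16.7%), against 7.14% of all genes. CCL2, IL17RA and IL4R were on the higher side (3.81% of all genes), and CSF2RB, CSF3R, IL12RB2 and IL32 on the lower side (3.33%). On the recovered reads, edgeR's quasi-likelihood test called 0 members (0.0952% of all genes), with 5 at an unadjusted p under 0.05 (6.94% of all genes). With all 6 libraries limma called 0 of 47 (0.0256% of all genes), with 5 at an unadjusted p under 0.05 (6.83% of all genes). DESeq2 on the 5 libraries called 2 members (1.64% of all genes), CCL2 higher (0.909%) and IL32 lower (0.736%). Over the 5 libraries CCL2 reached 1 RPM in NPMKD libraries only and CSF2RB in shSc libraries only, so each passed the filter through the group where it is high. IL12RB2 and IL32 reached 1 RPM in both shSc libraries but only in replicate 3 of NPMKD, so they too needed the high group to pass. The filter thus fixes these counts in part. The median log2 fold change was -0.08 over the 42 members and 0.01 over all genes tested. On this scale 18 members lay above 0, 24 below and 22 within 0.5 of 0. Such fold changes understate the change of genes near the 0.5 RPM added.

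The groups did not overlap for 11 of the 42 members (26.2%), against 22.8% of all genes tested. Every NPMKD library was above both shSc libraries for 6 members (12.3% of all genes) and below both for 5 (10.4%). With shSc replicate 3 included, 8 of 47 members (17.0%) had no overlap, against 13.9% of all genes. These were CCL2, IL4R and TNFRSF13C on the higher side (9.41% of all genes) and CSF2RB, IL12RB2, IL32, TNFSF12 and TNFSF13B on the lower side (4.54%). The filter fixes these counts in part, since CSF2RB, TNFSF12 and TNFSF13B reached 1 RPM in shSc libraries only. IL12RB2 and IL32 reached 1 RPM in every shSc library but only in replicate 3 of NPMKD. Nothing is read from the difference to the background. TNFSF12 and TNFSF13B had 6.11 and 23.6 RPM in shSc replicate 3 and reached no more than 1.04 RPM elsewhere.

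**Figure D2:**
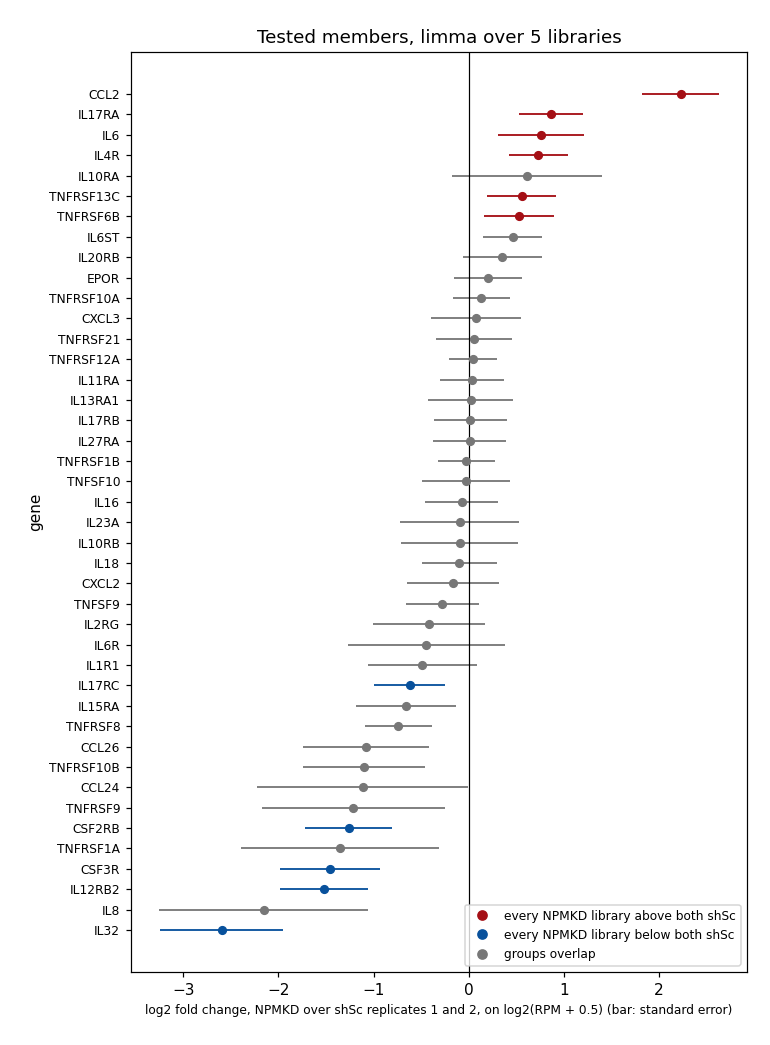
Log2 fold change of NPMKD over shSc replicates 1 and 2 on log2(RPM + 0.5) for each of the 42 tested members, with its standard error from limma. Red points mark the 6 members whose 3 NPMKD libraries were all above both shSc libraries, blue points the 5 whose NPMKD libraries were all below, and CCL2 and IL32 lie at the ends.

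Promoter letters of 2 members are shown to place the results on sequence: IL8, a member with widely spread NPMKD libraries, and EPOR, the erythropoietin receptor. The windows are RefSeq promoter sequence (table of GRCh38.p14), placed by exact match in GRCh37 and ended before the gene's GENCODE span. Capitals mark matches to the NF-kB letters GGNNTTTCC, the AP-1 letters TGANTCA or the GATA letters AGATAA, on either strand. The IL8 window (named CXCL8 in RefSeq) is chr4:74606036-74606235, plus strand, and holds an AP-1 match and an NF-kB match. The EPOR window is chr19:11495019-11495240, minus strand, and holds a GATA match read on the other strand as TTATCT.
IL8: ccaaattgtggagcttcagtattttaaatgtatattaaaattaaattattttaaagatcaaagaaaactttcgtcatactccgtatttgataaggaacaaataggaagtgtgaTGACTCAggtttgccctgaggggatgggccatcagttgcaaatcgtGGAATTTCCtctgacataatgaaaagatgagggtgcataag
EPOR: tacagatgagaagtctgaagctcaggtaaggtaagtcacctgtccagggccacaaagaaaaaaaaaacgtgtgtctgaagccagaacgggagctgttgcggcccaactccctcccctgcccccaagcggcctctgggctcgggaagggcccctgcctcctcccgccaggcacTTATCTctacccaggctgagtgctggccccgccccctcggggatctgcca
IL32 had 2 NF-kB matches, GGAGTTTCC and GGACTTTCC, in the 250 bases before its RefSeq start. They begin at 3115306 and 3115336 on chromosome 16, inside the GENCODE span of IL32, which starts at 3115298. Windows of 250 bases, not ended at the GENCODE span, were found for 36 of the 47 expressed members. NF-kB letters were in 8 of them (22.2%), among them CXCL2, CXCL3, IL6, IL4R and TNFRSF9, against 5.48% of 35116 windows in the table. AP-1 letters were in 6 (16.7%) against 6.57%, and GATA letters in 5 (13.9%) against 9.17%. STAT letters (TTCNNNGAA) were in 2 against 6.57%, and C/EBP letters (TTGCNNNAA) in 3 against 7.81%. A match is only a match of letters and does not show that a factor binds there.

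Among the growth factor receptors, EPOR was expressed in every library, while CSF3R and CSF2RB were low and, in NPMKD, below shSc replicates 1 and 2. EPOR (GRCh37 chromosome 19, 11487883 to 11495018, minus strand), the erythropoietin receptor, had 14.0, 13.5 and 42.2 RPM in the shSc libraries and 23.5, 12.8 and 13.4 RPM in the NPMKD libraries. The libraries interleaved, with shSc replicate 3 and NPMKD replicate 1 above the rest. Its log2 fold change was 0.21 (SE 0.36, limma adjusted p = 0.935), and it was -0.32 with shSc replicate 3 included. CSF3R (chromosome 1, 36931644 to 36948879, minus strand) encodes the granulocyte colony-stimulating factor receptor. CSF3R was at 7.12, 4.79 and 2.49 RPM in the shSc libraries and at 1.01, 1.36 and 3.90 RPM in the NPMKD libraries. NPMKD lay below shSc replicates 1 and 2, but NPMKD replicate 3 was above shSc replicate 3. The log2 fold change of CSF3R was -1.46 (SE 0.53, limma adjusted p = 0.607).

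CSF2RB (chromosome 22, 37309670 to 37336481, plus strand) is the shared beta chain of the IL-3, IL-5 and GM-CSF receptors. It had 1.55, 2.31 and 2.04 RPM in the shSc libraries and 0.168, 0.767 and 0.685 RPM in the NPMKD libraries, with all 3 NPMKD libraries below all 3 shSc libraries. As only the shSc libraries brought it past the filter, it could enter the test only by being high in shSc. Its log2 fold change was -1.26 (SE 0.46, limma adjusted p = 0.610). CSF2RA, the GM-CSF receptor alpha chain, stayed under 1 RPM in every library. CSF1R, the macrophage colony-stimulating factor receptor, reached 31.4 RPM in shSc replicate 3 and was under 1 RPM elsewhere. The monocyte markers CD14 (53.0 RPM) and S100A8 (11.0 RPM) were above 1 RPM in that library alone, while CD163, MARCO and FCN1 had no read in any library. The part of other cells or other RNA in that library was not tested.

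CCL2 was the chemokine that stood furthest apart between the groups. It lies on chromosome 17 from 32582293 to 32584227 (plus strand) and encodes a chemokine that attracts monocytes. It was at 0.916, 0.638 and 2.38 RPM in the shSc libraries and at 7.49, 5.29 and 4.06 RPM in the NPMKD libraries. Every NPMKD library was above every shSc library, and in the 5 libraries tested only NPMKD brought CCL2 past the filter. The mean was 0.777 ± 0.197 RPM (SD, n = 2) in shSc replicates 1 and 2 and 5.61 ± 1.74 RPM (SD, n = 3) in NPMKD, with a log2 fold change of 2.23 (SE 0.40, limma adjusted p = 0.140). DESeq2 called it over the 5 libraries (adjusted p = 0.000795) but not over all 6 (adjusted p = 0.245). Over the alternatives without a replicate block its adjusted p ranged from 0.000795 to 0.524.

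The eotaxins CCL24 and CCL26, which attract eosinophils through CCR3, varied widely between libraries. CCL26 had 6.34, 3.19 and 64.3 RPM in the shSc libraries and 0.757, 1.36 and 5.22 RPM in the NPMKD libraries. CCL24 had 3.88, 0.957 and 6.11 RPM in shSc, no read in NPMKD replicates 1 and 2, and 5.85 RPM in NPMKD replicate 3. Both genes were thus low in NPMKD replicates 1 and 2 and near the shSc level in NPMKD replicate 3. The log2 fold change of CCL26 was -1.08 (SE 0.66, limma adjusted p = 0.804). It was -2.31 with shSc replicate 3 included, and ranged from -0.62 without NPMKD replicate 1 to -1.72 without NPMKD replicate 3. The neutrophil chemokines CXCL2 and CXCL3 are close paralogs, so the split of reads between them is uncertain. CXCL2 ranged from 0.905 to 2.63 RPM. CXCL3 was at 3.67, 2.15 and 0.792 RPM in the shSc libraries and at 2.19, 2.30 and 5.27 RPM in the NPMKD libraries, and the groups overlapped (log2 fold change 0.08, SE 0.47). CXCL16, a membrane-bound chemokine, reached 36.4 RPM in shSc replicate 3 and 1.13 RPM or less elsewhere.

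Among interleukins, IL32 was lower in each NPMKD library. IL32 (chromosome 16, 3115298 to 3132193, plus strand) encodes a cytokine known from T and NK cells that induces other inflammatory cytokines. It had 5.08, 17.7 and 11.9 RPM in the shSc libraries and 0.589, 0.853 and 2.63 RPM in the NPMKD libraries. The highest NPMKD library was below the lowest shSc library. Of the NPMKD libraries only replicate 3 reached 1 RPM, so IL32 passed the filter through its high shSc libraries. The mean was 11.4 ± 8.93 RPM (SD, n = 2) in shSc replicates 1 and 2 and 1.36 ± 1.11 RPM (SD, n = 3) in NPMKD. Its log2 fold change was -2.60 (SE 0.64, limma adjusted p = 0.282), and it was -3.45 without shSc replicate 1 and -1.74 without shSc replicate 2. DESeq2 called IL32 over 5 libraries (adjusted p = 0.00606) and over all 6 (adjusted p = 0.00597, where it called 0.691% of all genes lower), and over the alternatives without a replicate block its adjusted p ranged from 0.00597 to 0.872. The list of 10 T and NK markers summed to 55.3 and 54.8 RPM in shSc replicates 1 and 2, 160 RPM in shSc replicate 3 and 30.9, 21.7 and 93.4 RPM in NPMKD. CD3D made up most of each sum outside shSc replicate 3, while CD2, LCK and GNLY were at or near 0 there. The part of such cells in the IL32 values was not tested.

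IL8 (chromosome 4, 74606236 to 74609433, plus strand), a neutrophil attractant, was 21.0 times as high in NPMKD replicate 3 as in the mean of the other 2 NPMKD libraries. It had 20.4, 7.10 and 7.69 RPM in the shSc libraries and 0.505, 0.938 and 15.1 RPM in the NPMKD libraries. Replicates 1 and 2 of NPMKD were far below every shSc library, and replicate 3 was within the shSc range. For IL8 the log2 fold change was -2.16 (SE 1.10, limma adjusted p = 0.775) with all 3 NPMKD libraries and -3.39 (adjusted p = 0.150) without replicate 3. IL16, a T cell attractant, was at 10.4, 10.0 and 9.05 RPM in the shSc libraries and 10.8, 6.31 and 13.2 RPM in the NPMKD libraries. IL18, an IL-1 family cytokine that induces interferon gamma, had 13.0, 6.22 and 4.07 RPM in the shSc libraries and 7.32, 9.38 and 8.64 RPM in the NPMKD libraries. Neither separated the groups: their log2 fold changes were -0.07 and -0.10, with standard errors of 0.39 for both.

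IL6, the inflammatory ligand of the IL6R and IL6ST receptor, was low in every library. It had 1.34, 0.558 and 2.04 RPM in the shSc libraries and 1.52, 2.73 and 1.53 RPM in the NPMKD libraries. NPMKD was above shSc replicates 1 and 2 and overlapped replicate 3. IL6 had a log2 fold change of 0.76 (SE 0.45, limma adjusted p = 0.804). IL23A, a subunit of IL-23, had 13.9 RPM in shSc replicate 3 and 0.505 to 3.85 RPM in the other libraries. IL11, another gp130 ligand, had 9.39 RPM there and 0.337 to 1.79 RPM in the others.

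The tested interleukin receptors comprised chains shared between cytokines and chains that bind a single ligand, and for 12 of the 16 the groups overlapped. IL6ST (gp130), the signalling chain of the IL-6 family, had 41.0, 25.2 and 24.1 RPM in the shSc libraries and 41.5, 39.3 and 53.8 RPM in the NPMKD libraries. Replicate 2 of NPMKD lay just under shSc replicate 1, and every other pair had NPMKD higher (log2 fold change 0.46, SE 0.31, limma adjusted p = 0.830). IL2RG, the common gamma chain of the IL-2 family, had 22.8, 25.7 and 14.9 RPM in the shSc libraries and 10.8, 11.8 and 45.1 RPM in the NPMKD libraries. Its NPMKD libraries lay on both sides of shSc, and the log2 fold change was -0.42 (SE 0.59), -1.07 without NPMKD replicate 3 and -0.064 without NPMKD replicate 1. IL11RA was the steadiest chain over the 5 libraries, at 3.95 to 4.43 RPM, and had 2.04 RPM in shSc replicate 3. IL6R, the IL-6 binding chain, had 1.97, 1.52 and 2.15 RPM in the shSc libraries and 0.0840, 0.938 and 4.74 RPM in the NPMKD libraries. IL27RA, IL13RA1, IL17RB and IL10RB ranged from 3.28 to 22.1 RPM, IL1R1 from 1.68 to 7.74 RPM and IL20RB from 0.905 to 2.48 RPM, each with the groups overlapping.

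IL4R (chromosome 16, 27324989 to 27376099, plus strand), the IL-4 and IL-13 receptor alpha chain, was higher in NPMKD without overlap. It had 5.99, 7.50 and 8.82 RPM in the shSc libraries and 11.4, 12.1 and 11.0 RPM in the NPMKD libraries. The spread within NPMKD was small, and the log2 fold change was 0.73 (SE 0.31, limma adjusted p = 0.694). IL17RA (chromosome 22, 17565844 to 17596583, plus strand), the shared IL-17 receptor chain, had 10.9, 20.2 and 76.9 RPM in the shSc libraries and 25.9, 29.7 and 27.2 RPM in the NPMKD libraries. It was above shSc replicates 1 and 2 and below replicate 3. The log2 fold change of IL17RA was 0.87 (SE 0.33, limma adjusted p = 0.639), and it was 0.09 with shSc replicate 3 included and -0.53 with DESeq2 on those 6 libraries.

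IL12RB2 and IL17RC lay on the lower side. IL12RB2 (chromosome 1, 67773047 to 67864407, plus strand), the signalling chain of the IL-12 receptor, had 2.61, 2.47 and 1.58 RPM in the shSc libraries and 0.168, 0.682 and 1.00 RPM in the NPMKD libraries. All NPMKD libraries were below all shSc libraries, with a log2 fold change of -1.52 (SE 0.47, limma adjusted p = 0.471). Of the NPMKD libraries only replicate 3 reached 1 RPM, so IL12RB2 also passed the filter through shSc. IL17RC, the partner of IL17RA, had 7.12, 5.34 and 1.92 RPM in the shSc libraries and 3.28, 3.33 and 5.16 RPM in the NPMKD libraries. Its lowest library was shSc replicate 3, so that the groups overlapped once this library was counted (log2 fold change -0.62, SE 0.38, and -0.13 with that library).

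The TNFRSF receptors included the members with the most reads. TNFRSF10B, a receptor of the death ligand TRAIL, had 157, 111 and 81.5 RPM in the shSc libraries and 43.0, 31.7 and 169 RPM in the NPMKD libraries. NPMKD replicates 1 and 2 were below every shSc library and replicate 3 was above every one. Its log2 fold change was -1.10 (SE 0.64, limma adjusted p = 0.804) with 3 NPMKD libraries and -1.82 (adjusted p = 0.136) without replicate 3. TNFRSF10A, the other TRAIL receptor with a death domain, did not share this pattern. It had 26.5, 40.8 and 39.5 RPM in the shSc libraries and 31.1, 36.6 and 41.4 RPM in the NPMKD libraries. The genes are close paralogs, and reads they share could be split between them.

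TNFRSF12A, the TWEAK receptor, and TNFRSF1B, the second TNF receptor, were steady. TNFRSF12A had 52.1, 41.8 and 44.7 RPM in the shSc libraries and 50.7, 42.9 and 51.3 RPM in the NPMKD libraries (log2 fold change 0.04, SE 0.25). TNFRSF1B had 57.6, 37.1 and 43.3 RPM in the shSc libraries and 52.7, 38.1 and 46.8 RPM in the NPMKD libraries (log2 fold change -0.02, SE 0.30). TNFRSF1A, the main TNF receptor with a death domain, was by contrast at 44.1, 56.6 and 63.6 RPM in the shSc libraries and 3.53, 23.2 and 80.6 RPM in the NPMKD libraries. Its NPMKD libraries spanned both sides of shSc. TNFRSF8 (CD30) had 51.9, 39.6 and 48.4 RPM in the shSc libraries and 39.9, 25.4 and 19.3 RPM in the NPMKD libraries, where replicate 1 was within the shSc range and replicates 2 and 3 were below it. TNFRSF21 (DR6) ranged from 6.79 to 18.1 RPM, with the groups overlapping. Tested members given without a fold change here were chosen after their values were seen, as were CXCL16, IL11 and TNFSF13B.

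TNFRSF13C (chromosome 22, 42318036 to 42322810, minus strand), the BAFF receptor of B cells, was low but higher in each NPMKD library. It had 1.34, 1.52 and 1.24 RPM in the shSc libraries and 2.27, 2.22 and 2.53 RPM in the NPMKD libraries, with no overlap over 6 libraries. TNFRSF13C had a log2 fold change of 0.56 (SE 0.36, limma adjusted p = 0.820). TNFRSF6B, a soluble decoy receptor, lies next to RTEL1 on the same strand, with which it can share reads. It had 0.987, 1.12 and 1.81 RPM in the shSc libraries and 1.77, 1.62 and 1.84 RPM in the NPMKD libraries.

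Few TNFSF ligands were detected. TNFSF9, the ligand of TNFRSF9 (4-1BB), had 24.3, 12.1 and 11.0 RPM in the shSc libraries and 14.9, 11.2 and 16.9 RPM in the NPMKD libraries. The groups overlapped, and the log2 fold change was -0.28 (SE 0.38). TNFSF10, the ligand TRAIL, had 2.75, 0.877 and 0.339 RPM in the shSc libraries and 1.60, 1.45 and 1.69 RPM in the NPMKD libraries. NPMKD lay inside the wider shSc range (log2 fold change -0.03, SE 0.47). TNFSF12, the ligand TWEAK, shares exons with a readthrough transcript into TNFSF13. Apart from shSc replicate 3, it was at 0.705 and 1.04 RPM in the shSc libraries and 0.421, 0.341 and 0.632 RPM in the NPMKD libraries.

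Replicate 3 of NPMKD stood above its group for 14 of the 42 tested members (33.3%), by at least 1 on the log2(RPM + 0.5) scale over both other NPMKD libraries, against 4.97% of all genes tested. No member lay as far below, against 1.41% of all genes. The 14 were CCL24, CCL26, CXCL3, CSF3R, IL8, IL23A, IL32, IL2RG, IL6R, IL10RA, IL15RA, TNFRSF1A, TNFRSF9 and TNFRSF10B. TNFRSF9 (4-1BB), a costimulatory receptor, had 6.98, 8.69 and 2.04 RPM in the shSc libraries and 1.68, 0.767 and 16.1 RPM in the NPMKD libraries. IL10RA, the IL-10 binding chain, had 12.4, 6.38 and 8.93 RPM in the shSc libraries and 8.50, 6.48 and 47.5 RPM in the NPMKD libraries. IL15RA, the IL-15 binding chain, gave 12.6, 16.3 and 10.3 RPM in the shSc libraries and 4.88, 7.68 and 18.3 RPM in the NPMKD libraries. For TNFRSF9 and IL15RA the other NPMKD libraries were below every shSc library, while for IL10RA they were within the shSc range.

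Promoter windows were found for 13 of the 14. NF-kB letters were in 4 of them (IL8, IL32, CXCL3 and TNFRSF9), 30.8% against 22.2% of the expressed members' windows and 5.48% of all windows. AP-1 letters were in 5 (IL8, CCL24, IL10RA, IL23A and TNFRSF9), 38.5% against 16.7% and 6.57%. C/EBP letters were in 3 (23.1% against 8.33% and 7.81%), STAT letters in 2 (15.4% against 5.56% and 6.57%) and GATA letters in 1 (7.69% against 13.9% and 9.17%). With 13 windows, and all windows of the table being an unlike set, these shares are a description only. Values of 5 stress response genes, picked with their values in view, stand beside this. CHAC1, a target of the amino acid response, had 96.4, 22.1 and 8.71 RPM in the shSc libraries and 15.5, 8.53 and 70.9 RPM in the NPMKD libraries. ATF3 had 59.1, 27.6 and 16.7 RPM in the shSc libraries and 18.8, 17.1 and 63.3 RPM in the NPMKD libraries. TRIB3, DDIT4 and DDIT3 were also highest in replicate 3 among the NPMKD libraries, at 350, 1345 and 2.74 RPM. In shSc, 4 of the 5 were highest in replicate 1, and DDIT3 was highest in replicate 3, at 3.05 RPM. The part of a stress response, of culture or of depth in the pattern was not tested. Without NPMKD replicate 3, limma called 0 members. At an unadjusted p under 0.05 there were 12 of 41 members (29.3%), against 12.7% of all genes, and all of these but CCL2 were lower in NPMKD. Most of the lower ones are among the 14, which were picked for a high NPMKD replicate 3. Leaving that library out lowers them by construction, so nothing is read from this share.

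**Figure D3:**
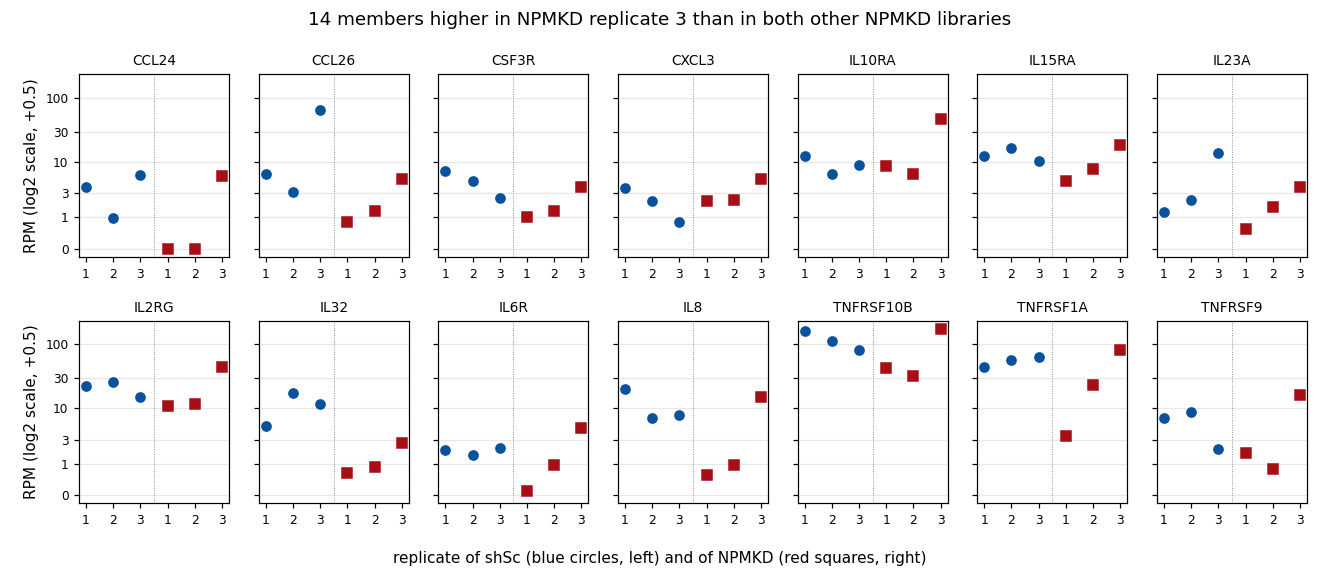
RPM on a log2 scale after adding 0.5, for the 14 members that were at least 1 higher on that scale in NPMKD replicate 3 than in both other NPMKD libraries; blue circles are shSc replicates 1 to 3 and red squares NPMKD replicates 1 to 3. For IL8, TNFRSF9 and TNFRSF10B the first 2 NPMKD libraries lie below every shSc library and replicate 3 does not, while for IL32 all 3 NPMKD libraries stay below shSc.

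Replicate 3 of shSc held 26 members that were under 1 RPM in all other libraries. This is 20.3% of the 128 members under 1 RPM in those libraries, against 22.5% of all genes under 1 RPM there, so the members' share was near the background. The 26 comprised 12 interleukins, 5 chemokines, 3 interleukin receptors, 2 TNFSF ligands, 1 TNFRSF receptor, CSF1R and 2 of the others. The highest were the pseudogene CXCR2P1 at 80.1 RPM, IL24 at 49.9 RPM, the lymphoid chemokine CCL21 at 46.6 RPM and IL27 at 43.0 RPM. CXCR2P1 may share reads with its parent gene CXCR2, which had no read in shSc replicate 3. The source of the CXCR2P1 reads was not tested. Of the 26, 11 had no read in any of the other 5 libraries and 15 reached 10 RPM in shSc replicate 3. The only other libraries with members above 1 RPM in them alone were shSc replicate 1, with 4, and NPMKD replicate 3, with IL9R (6.27 RPM) and IL21R (4.32 RPM).

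**Figure D4:**
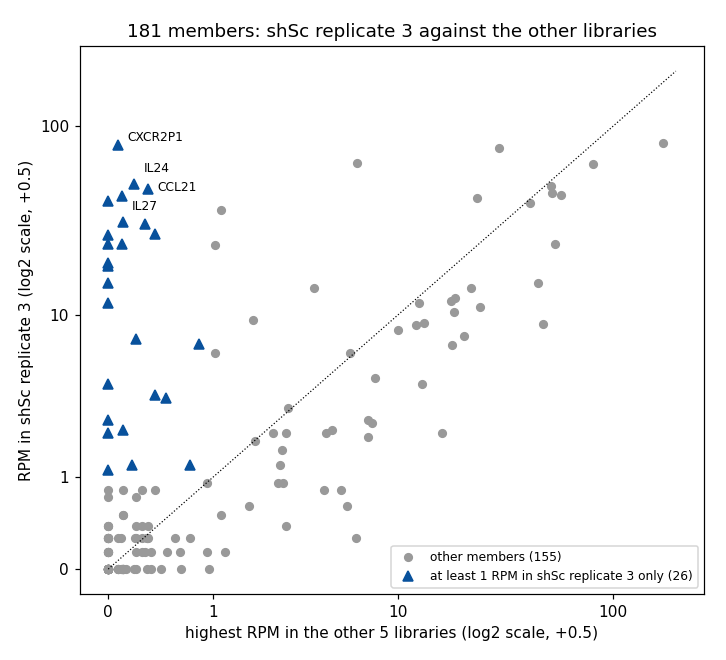
RPM in shSc replicate 3 against the highest RPM in the other 5 libraries for the 181 members, both on a log2 scale after adding 0.5, with the dotted line at equality. Triangles mark the 26 members with at least 1 RPM in shSc replicate 3 only, up to CXCR2P1 at 80.1 RPM.

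Genes that act downstream of these receptors were mostly expressed, and PTPN6 stood apart between the groups. Of 26 JAK, STAT and SOCS pathway genes, 21 were tested and limma called 0 (0.13% of all genes). At an unadjusted p under 0.05 in limma, SOCS3 was higher (3.81% of all genes) and PTPN6 and STAT6 were lower (3.33%). DESeq2 called PTPN6 lower (0.736% of all genes). The median log2 fold change of this list was -0.09. PTPN6 (SHP-1), a phosphatase that restrains cytokine receptor signalling, had 14.0, 13.7 and 8.48 RPM in the shSc libraries and 2.78, 2.39 and 2.63 RPM in the NPMKD libraries. Its groups were far apart, with a log2 fold change of -2.21 (SE 0.33, adjusted p = 0.0666 from limma and 5.9e-07 from DESeq2). SOCS3, STAT6 and PTPN6 were named after their values were seen. STAT5A and STAT5B had the most reads of the list, at 379 ± 45.0 and 231 ± 24.4 RPM (SD, n = 2) in shSc replicates 1 and 2 and 351 ± 88.5 and 196 ± 23.4 RPM (SD, n = 3) in NPMKD.

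Of 32 adaptors of TNF and IL-1 receptors, 30 were tested and limma and DESeq2 called 0 (0.13% and 1.64% of all genes). In limma 0 had an unadjusted p under 0.05 (7.14% of all genes), and the median log2 fold change was -0.05. RELA, a subunit of NF-kB, was at 96.0 ± 32.9 RPM (SD, n = 2) in the shSc pair and 98.6 ± 21.1 RPM (SD, n = 3) in NPMKD. TRAF4, the adaptor with the next most reads, was at 74.9 ± 17.2 and 97.9 ± 19.6 RPM. Of 52 other cytokine system genes, 15 were tested and limma and DESeq2 called 0. OSMR alone had an unadjusted p under 0.05 in limma, higher in NPMKD (3.81% of all genes). The median log2 fold change of these genes was 0.02. TGFB1, a growth-inhibitory cytokine, led this list at 322 ± 16.3 RPM (SD, n = 2) in the shSc pair and 330 ± 65.0 RPM (SD, n = 3) in NPMKD. LTBR, the lymphotoxin beta receptor, followed at 128 ± 16.0 and 136 ± 17.6 RPM.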

How the data were processed

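K562 RNA of 3 shSc and 3 NPMKD libraries was measured by AmpliSeq. The authors used Torrent Suite 4.4 to align Ion Proton reads (hg19), and they deposited RPM per gene from the AmpliSeqRNA plugin, whose version is not given in the sources used here. Reads, recovered from RPM steps, were whole for 100% of values within 0.1 read. The 10 spike-in rows, all 0, were left out. Chi-square per gene between library pairs ranged from 33.951 to 187.84, which leaves no duplicated library. The test was limma 3.58.1 (R 4.3.3, variance trend) on log2(RPM + 0.5) of genes reaching 1 RPM in 2 of 5 libraries, with Benjamini-Hochberg adjustment over all genes at 0.05. edgeR 4.0.16 and DESeq2 1.42.0 on recovered reads, pseudocounts of 0.1 and 1, other filters, TMM factors, no trend, all 6 libraries, a replicate block and each library left out were alternatives. The fit was tested on simulated data with the same spread for every gene and changes set only in genes at 5 RPM or more. That simulation does not cover members near 1 RPM or genes that vary widely between libraries. Tables were built in Python 3.11.15 with pandas 2.3.3. GENCODE release 44 (GRCh37 mapping) gave the coordinates (175 members matched by symbol, 6 by an older symbol), and RefSeq the sequences.

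Members, lists and tests were chosen with earlier results of these data known. Named members were the 5 growth factor receptors, up to 3 per role with the highest mean over 5 libraries, up to 5 per direction with the smallest p and no overlap, the 4 highest in shSc replicate 3 alone, and in each signalling list members that passed and the 2 with the highest mean.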

Additional observations from a re-analysis of the deposited data

Results flagged for a closer look

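Replicate 3 of shSc, which the tests do not use, held 26 members above 1 RPM that no other library did. This is 20.3% of the 128 members under 1 RPM elsewhere, against 22.5% of all such genes, so the share is no more than the background. The highest were CXCR2P1 at 80.1 RPM, IL24 at 49.9 RPM, CCL21 at 46.6 RPM and IL27 at 43.0 RPM. The source of these reads was not tested.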

How the results depend on the processing

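No member was called higher or lower under either alternative pseudocount, no filter, a filter of 5 RPM, TMM factors, limma without the trend, all 6 libraries, edgeR on 5 or 6 libraries, or any library left out (0 to 0). DESeq2 called 1 higher and 1 lower on 5 libraries, and 0 higher and 1 lower on 6. A minimum of 5 RPM left 29 expressed members in place of 47. With 6 libraries 8 members had no overlap in place of 11.

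Deviations of same-numbered shSc and NPMKD libraries correlated at 0.42 for replicate 1 and 0.30 for replicate 2. The crossed pairs of these replicates correlated at -0.32 and -0.35. For replicate 3 the value was 0.05, and NPMKD replicate 3 correlated best with shSc replicate 2 (0.06). For replicates 1 and 2 the value was thus highest at the same number. Deviations were taken from the mean of each group, shSc replicate 3 included, so these correlations depend on each other. They cannot decide whether replicate 3 was paired. Whether the numbers mark pairs is not stated, and the main fit used no block. A replicate block on 5 libraries called 2 members higher and 13 lower (1698 genes in all, against 15 without it), and on 6 libraries 0 of each. On 5 libraries NPMKD replicate 3 had no shSc partner, so it added nothing to the blocked fold changes. These equalled those without NPMKD replicate 3, as for IL8 (-3.39) and IL32 (-3.05). The 5-library calls thus rest on replicates 1 and 2 and do not show an effect of pairing alone. Under the 5-library block the log2 fold change was -0.0013 for TNFRSF12A and -0.28 for CXCL3.

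Fold changes of 10 of 23 named genes changed sign at some setting, and no value of changed sign had an adjusted p below 0.05. With their main sign, IL2RG and IL17RA had limma adjusted p = 0.00652 and 0.0276 under the 5-library block. With all 6 libraries, with or without a block, values were -0.32 for EPOR, 0.0072 for TNFRSF1B, 0.42 for TNFSF10 and 0.25 for IL18. On 6 libraries edgeR and DESeq2 gave -0.59 and -0.61 for EPOR, 0.22 and 0.22 for TNFSF10, 0.021 and 0.0046 for IL2RG, -0.50 and -0.53 for IL17RA, and 0.099 and 0.079 for IL18, and DESeq2 gave -0.0090 for TNFRSF12A. A pseudocount of 0.1 gave 0.0061 for TNFSF10. With each library left out in turn, values ranged from -0.066 to 0.36 for EPOR, -0.11 to 0.20 for TNFRSF12A, -0.34 to 0.29 for TNFRSF1B, -0.76 to 0.21 for TNFSF9, -0.65 to 0.59 for TNFSF10, -0.28 to 0.41 for CXCL3, -0.29 to 0.22 for IL16 and -0.60 to 0.41 for IL18. The following members kept their sign with each library left out, though IL2RG and IL17RA changed it on 6 libraries. Their range was -3.45 to -1.74 for IL32, -1.72 to -0.62 for CCL26, -1.07 to -0.064 for IL2RG and -3.39 to -1.41 for IL8. It was 0.44 to 1.30 for IL17RA, 0.36 to 1.16 for IL6 and 0.12 to 0.81 for IL6ST. With all 6 libraries DESeq2 gave -3.53 for CCL26 (adjusted p = 0.0931), in a range from 0.00348 under the 5-library block, its only call, to 0.99991 over its alternatives. The cause was not tested. Where 1 shSc library was left, it was assumed to vary like NPMKD. Members at an unadjusted p under 0.05 numbered 3 without shSc replicate 1, 4 without NPMKD replicate 1 or 2, and 12 without NPMKD replicate 3, in place of 7. Over all genes the counts were 875, 478, 413 and 1446, in place of 825. The edgeR and DESeq2 fits on 6 libraries were added after seeing the data. Members near 1 RPM rest on few reads per library, which limits the precision of their fold changes.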
